A study of Homo sapiens with 16 samples.

Results

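Acetylation of histone H3 at lysine 27 (H3K27ac), a mark of active promoters and enhancers, was described in the regions of 8 genes that restrain JAK-STAT signaling: SOCS1, SOCS2, SOCS3, CISH, PIAS1, PTPN1, PTPN2 and PTPN6. A region was taken when the deposited table named one of these genes for it and its centre lay at most 50000 bp from the annotated transcription start site (TSS). This rule found 74 of the 151654 regions, and it used no measured value. A region is a 1000 bp window around a merged ATAC-seq peak. PTPN1 had 16 regions, SOCS1 13, SOCS3 12 and PTPN2 12. SOCS2, CISH and PIAS1 had 6 each, and PTPN6 had 3. Of the 74 regions, 22 were centred within 3000 bp of a TSS, and 31 overlapped another region of the whole table, mostly of the same gene, so neighboring values share reads. In all, 72 regions passed the filter of at least 10 counts in at least 2 libraries. The remaining 2, a PTPN2 region at -9673 bp and a SOCS2 region at 38043 bp, did not and were not tested. Regions are called here by their gene and by the distance of their centre from the TSS, negative when upstream.

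The cells were THP-1, a human monocytic leukemia line. WT cells carried Cas9 only according to their genotype label. USP18-/- cells were edited by CRISPR, and the study grew its knockouts from sorted single cells; which clone gave these libraries is not given in the sources used here, so the effect of USP18 loss and differences between a clone and its parent line cannot be told apart. Each genotype was kept untreated or received IFNα (6 h, 1000 U/ml), which gave 4 groups with 2 H3K27ac libraries each, labelled as biological replicates. These are bulk libraries, in which a change in every cell and a change in a share of the cells cannot be told apart. USP18 is both a protease that removes ISG15 and an inhibitor of the type I IFN receptor. IFN below means IFNα.

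Type I IFN binds the IFNAR1 and IFNAR2 receptor chains, which activate the kinases JAK1 and TYK2. These phosphorylate STAT proteins. A complex of STAT proteins with IRF9 binds the IFN-stimulated response element (ISRE), while STAT dimers bind the gamma-activated site (GAS). The inhibitors act at different steps. SOCS1 and SOCS3 bind and block JAK kinases, CISH and SOCS2 compete at phosphorylated cytokine receptors, and all of them recruit ubiquitin ligases. Several SOCS family genes are themselves STAT targets and form a negative feedback loop. PIAS1 is a SUMO ligase that restrains DNA-bound STAT proteins. PTPN1 (PTP1B), PTPN2 (TC-PTP) and PTPN6 (SHP-1) are tyrosine phosphatases that remove phosphate from receptors, JAKs or STATs.

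Short stretches of the reference genome are shown for the regions on which the results below turn. Exact matches were searched on both strands to the core of the ISRE, 2 copies of TTTC with 2 bases between them, and to the GAS, TTCNNNGAA, which reads the same on either strand. Capitals mark the match, each stretch is read 5′ to 3′ from hg38, and the coordinates enclose the whole stretch. In the SOCS1 promoter, the ISRE core is centred at -130 bp, under the regions at -357, -23 and 337 bp, and is shown because IFN raised the first and the second of these in both genotypes. It lies outside any annotated exon. The 4 GAS matches of CISH lie in pairs upstream of its TSS, the outer pair inside the 5′ UTR of the neighbor MAPKAPK3. The SOCS2 pair lies at -81 and -70 bp from the nearest annotated SOCS2 start, in an exon of the antisense gene SOCS2-AS1. The GAS matches are shown because they lie in the regions nearest to these start sites, whose levels are given below.
SOCS1 promoter, ISRE core, chr16:11256298-11256327, plus strand: ccacttttggTTTCTCTTTCcgcggtggcg
SOCS2 promoter, first GAS, chr12:93570886-93570915, plus strand: gtgaggccgaTTCCTGGAAagttcctggaa
SOCS2 promoter, next GAS, chr12:93570897-93570926, plus strand: tcctggaaagTTCCTGGAAagccgcctccg
CISH promoter, inner GAS, chr3:50611868-50611897, plus strand: gttccagcccTTCCCGGAAgcagcgtcttc
CISH promoter, inner GAS, chr3:50611885-50611914, plus strand: aagcagcgtcTTCCTAGAAccgcgggctga
CISH promoter, outer GAS, chr3:50611986-50612015, plus strand: tttgacagatTTCCAAGAActttccaggaa
CISH promoter, outer GAS, chr3:50611997-50612026, plus strand: tccaagaactTTCCAGGAAaacggggcggg

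Away from promoters, stretches are shown for regions in which IFN raised H3K27ac in USP18-/- cells, or whose level differed between the genotypes. All 4 of these places are outside annotated exons. The PTPN1 match lies upstream of that gene. Both PTPN2 places lie within PTPN2 in GENCODE, although the deposited table lists the one at -19756 bp as intergenic.
SOCS1 region at 30612 bp, ISRE core, chr16:11225584-11225613, plus strand: ctctggttccTTTCACTTTCtgctctgcgt
PTPN1 region at -26650 bp, ISRE core, chr20:50483863-50483892, plus strand: gcacagttacTTTCGTTTTCtgattcccat
PTPN2 region at 21506 bp, ISRE core, chr18:12819438-12819467, minus strand: agtaatctggTTTCTGTTTCtgtttttctg
PTPN2 region at -19756 bp, first GAS, chr18:12904130-12904159, plus strand: gaaccctcagTTCCGGGAActgcccgcctt
PTPN2 region at -19756 bp, next GAS, chr18:12904151-12904180, plus strand: gcccgccttcTTCCTGGAAaactcacgaat

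Over the whole windows, the 72 tested regions held 10 distinct ISRE cores and 39 distinct GAS matches. At least 1 ISRE core was found in 12 of the 72 regions (16.7%), beside 17.1% of all 123276 tested regions. A GAS match was found in 31 of the 72 (43.1%), beside 25.6% of all tested regions. In the central 200 bp the ISRE core was in 3 of the 72 (4.17%, all tested regions 5.62%) and GAS in 6 (8.33%, all tested regions 5.39%). No test was made of these shares or of a link between a match and a response, and overlapping windows hold the same match. The PTPN1 region at -25859 bp and the SOCS1 region at -1256 bp, both raised by IFN in USP18-/- cells, held neither motif. The PIAS1 region at -44834 bp held 2 ISRE cores, and its means in USP18-/- cells were 5.38 CPM untreated and 5.41 CPM with IFN.

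Between 9046141 and 12935453.5 tags fell in the regions per library. The libraries of a group correlated at 0.953 to 0.961 in log2 CPM across regions, and differed by more than counting error in every group. Levels are given as CPM, a count scaled to library size with TMM factors, comparable between regions because all windows have the same length. At the TSS of USP18, H3K27ac ranged from 7.62 to 49.2 CPM and was not lost in USP18-/- cells, but the mark at a promoter says nothing of an edit in the coding sequence. All 8 myeloid markers had tested regions, and their summed level at the TSS ranged from 192 to 197 CPM in untreated WT, 194 to 201 CPM in IFN treated WT, 210 to 220.2 CPM in untreated USP18-/- and 203 to 208 CPM in IFN treated USP18-/- cells. Of 8 markers of other cell types, GATA1, HBB, EPCAM and ALB had no tested region. The sum over the other 4 was 8.06 to 11.3 CPM in untreated WT, 9.02 to 9.85 CPM in IFN treated WT, 12.5 to 13.3 CPM in untreated USP18-/- and 14.6 to 16.7 CPM in IFN treated USP18-/- cells. Among myeloid markers, the region of MPO, a granule enzyme of immature myeloid cells, fell from 48.9 and 56.7 CPM in untreated WT to 16.4 and 18.4 CPM in untreated USP18-/- cells. In the same comparison SPI1 rose by 0.57, CEBPA by 0.55 and CD14 by 0.98 on the log2 scale, and CD33, CSF1R, LYZ and ITGAM did not pass the test at their TSS. With IFN in USP18-/- cells, MPO fell by 2.00, LYZ by 1.40 and CEBPA by 0.47, while SPI1 rose by 0.39. By the thresholds given below, 3 of the 67 tested myeloid marker regions were higher and 13 lower between untreated genotypes (4.48% and 19.4%, all tested regions 5.66% and 10.8%). Between IFN treated genotypes 6 were higher and 18 lower (8.96% and 26.9%, all tested regions 11.3% and 13.4%). The part of such differences in the results below was not tested.

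At the region nearest to the TSS, the 8 genes differed in the comparisons in which they passed the test. SOCS1 rose with IFN in both genotypes and more in USP18-/- cells. It was also higher in USP18-/- cells without IFN, as were PTPN2, PTPN6, PIAS1 and SOCS2. Between genotypes, SOCS3 and CISH passed the test with IFN and not without it. SOCS3 and PTPN2 also rose with IFN in USP18-/- cells. PTPN1 did not pass in any comparison there. In untreated WT cells, the order of these levels was PTPN6 (25.3 ± 1.22 CPM, SD, n = 2), PIAS1 (23.8 ± 3.47), SOCS1 (23.03 ± 1.76), PTPN2 (20.2 ± 0.479), PTPN1 (14.6 ± 0.307), SOCS3 (14.0 ± 0.562), CISH (12.5 ± 1.76) and SOCS2 (4.45 ± 0.134). The libraries of PTPN6, PIAS1 and SOCS1 overlapped from one to the next, as did those of PTPN1, SOCS3 and CISH, so these neighbors did not differ beyond their spread. In IFN treated USP18-/- cells the order was SOCS1 (90.6 ± 2.79 CPM), PTPN2 (56.7 ± 2.64), PTPN6 (49.2 ± 2.63), PIAS1 (40.8 ± 1.35), SOCS3 (24.9 ± 1.08), CISH (19.2 ± 0.116), SOCS2 (13.1 ± 0.448) and PTPN1 (12.4 ± 1.31). Only SOCS2 and PTPN1, neighbors in that order, overlapped.

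**Figure D1:**
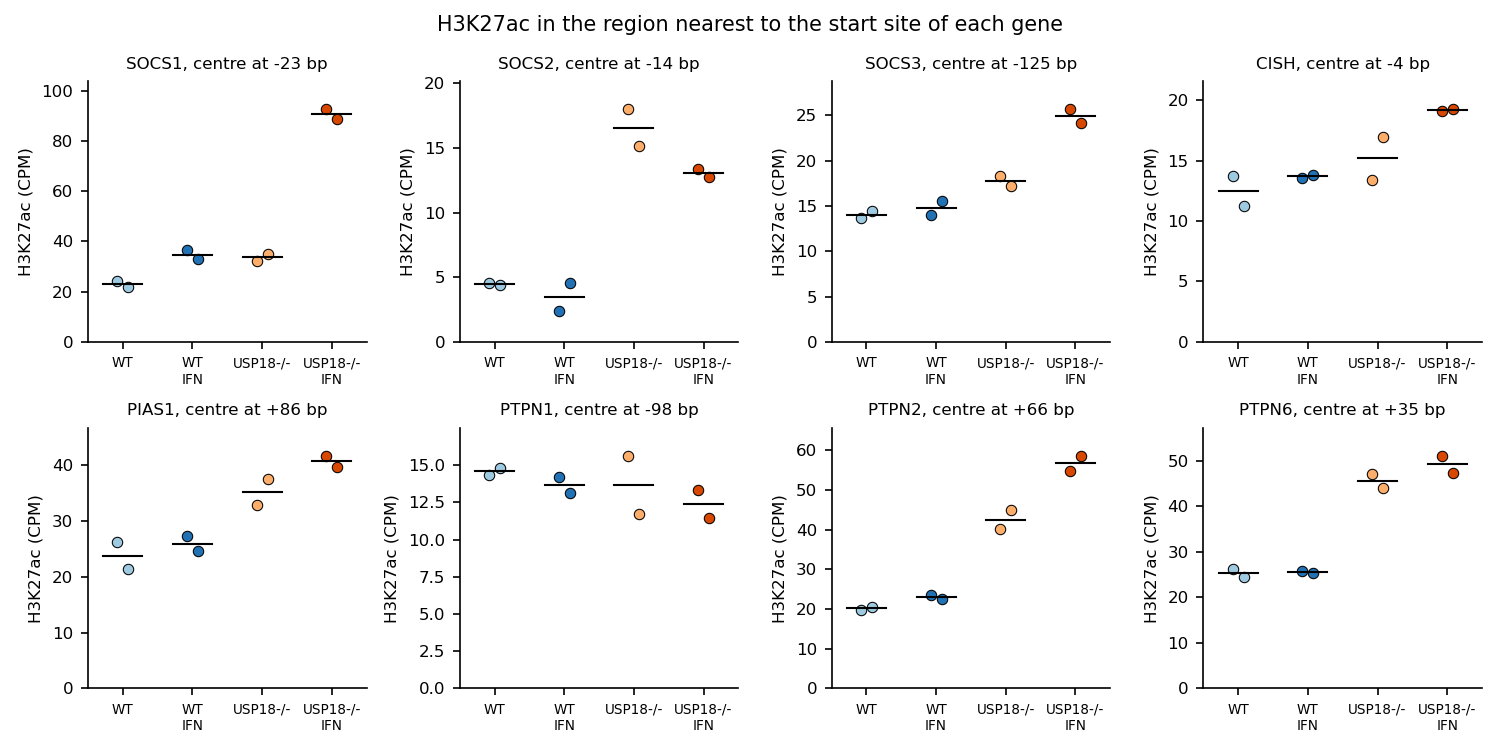
H3K27ac (CPM, vertical axes from 0) in the region nearest to the TSS of each gene, by genotype and treatment. Points are the 2 libraries of a group and bars their mean. In IFN treated USP18-/- cells, SOCS1 reaches 88.6 and 92.6 CPM, while SOCS2 is high in both USP18-/- groups and PTPN1 stays between 11.5 and 15.6 CPM in all 8 libraries.

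Throughout, p-values come from the quasi-likelihood test of edgeR and are adjusted over the 123276 tested regions by the Benjamini-Hochberg method, and a region is called when its fold change is above 2 and its adjusted p under 0.05. In WT cells, IFN raised 1 of the 72 regions past this threshold (all tested regions 0.344%), in SOCS1, and 3 passed on the adjusted p alone (all tested regions 0.653%). That single call was lost without replicate 2 of untreated WT cells and without either library of IFN treated WT cells. No region was called lower (all tested regions 0.0381%) or passed lower on the adjusted p alone (0.153%). At an unadjusted p under 0.05, 0 regions were lower and 11 (all tested regions 4.52%) higher, with 4.44% of all tested regions lower, and DESeq2 called 0 in either direction. In USP18-/- cells, IFN raised 12 regions, in SOCS1, PTPN1 and PTPN2 (all tested regions 7.14%), and 22 passed on the adjusted p alone (13.0%). Among the 12, the PTPN2 region at 21506 bp passed the count filter only through the IFN treated USP18-/- libraries. It is also among the higher calls given below between the IFN treated genotypes and for the difference of the IFN effects. Only 2 were called lower, in SOCS1 and PTPN1 (4.28%), and 7 on the adjusted p alone (11.2%). The 2 lower calls became 0 without replicate 2 of untreated USP18-/- cells and 1 without replicate 2 of IFN treated USP18-/- cells.

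Between genotypes without IFN, 7 regions were higher in USP18-/- cells, in SOCS1, SOCS2, PTPN1 and PTPN2 (all tested regions 5.66%), and 19 on the adjusted p alone (16.9%). Lower calls numbered 3, in SOCS1 and PTPN2 (all tested regions 10.8%), and 11 on the adjusted p alone (16.8%). Between the IFN treated genotypes, 17 regions were higher in USP18-/- cells, in SOCS1, SOCS2, PTPN1, PTPN2 and PTPN6 (11.3%), and 24 on the adjusted p alone (21.3%). Of the lower regions, 5 were called, in SOCS1 and PTPN1 (13.4%), and 13 passed on the adjusted p alone (19.4%). The test of the difference between the IFN effects of the genotypes called 8 regions with a larger effect in USP18-/- cells, in PTPN1 and PTPN2 (4.66%), and 12 on the adjusted p alone (6.84%). It called 3 with a smaller one, in SOCS1 and PTPN1 (2.51%), and 10 on the adjusted p alone (5.22%). Without replicate 1 of untreated WT cells the 8 became 5, and without replicate 2 of untreated or of IFN treated USP18-/- cells the 3 became 1. Scaled by the sum of counts, the share of all calls that were higher fell from 62.5% to 48.6% for IFN in USP18-/- cells, from 34.4% to 22.7% between untreated genotypes, from 45.7% to 26.6% between IFN treated genotypes and from 65.0% to 49.4% for the difference of the IFN effects. The counts for the 8 genes were then 11 higher and 2 lower, 5 and 4, 11 and 8, and 6 and 3. The comparisons share groups, so their counts are not independent of each other.

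**Figure D2:**
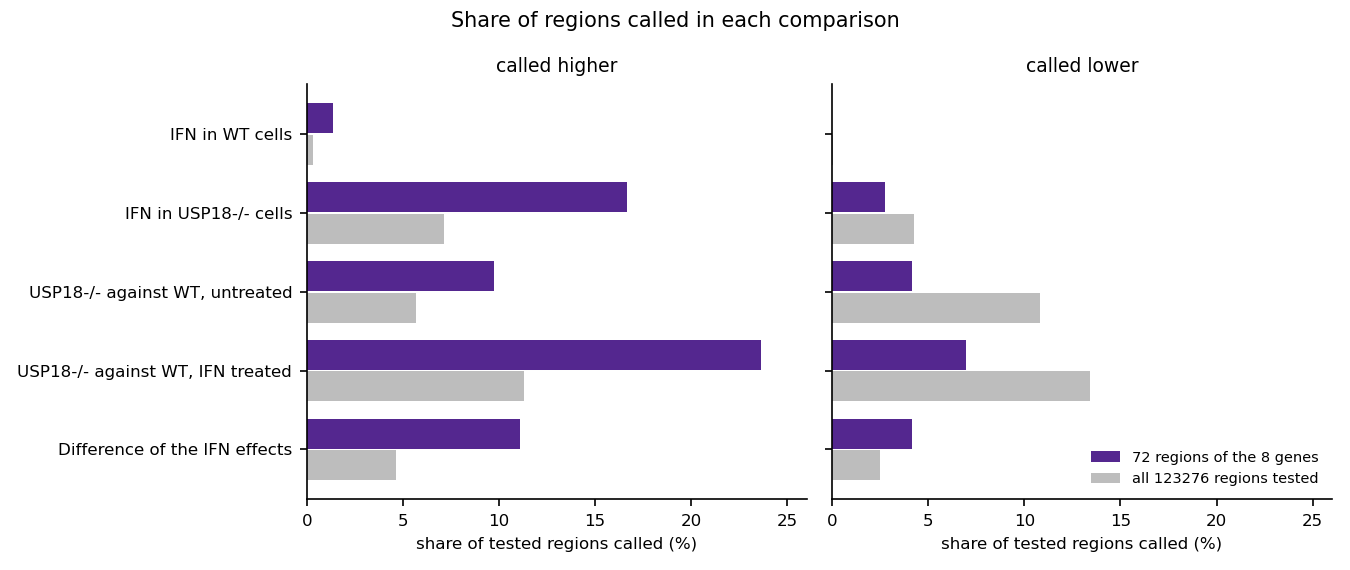
Share of tested regions called (percent, horizontal axes from 0) in each of the 5 comparisons, higher in the left panel and lower in the right. Dark bars are the 72 regions of the 8 genes and grey bars all 123276 tested regions. The share of the 8 genes' regions called higher is 16.7% for IFN in USP18-/- cells beside 7.14% of all regions, and 23.6% between the IFN treated genotypes beside 11.3%. Overlapping windows are counted separately. With 1 window per chain of overlapping windows, 5 and 7 regions of the 8 genes were called higher in these comparisons.

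Between the genotypes, the share of regions called higher was larger near a TSS. Within 3000 bp of a TSS, 13 of the 22 regions were higher in IFN treated USP18-/- than in IFN treated WT cells. Many of the 22 overlap a neighbor, among them the 4 of SOCS1 and the 4 of SOCS2. This count and the median below therefore repeat shared reads. With 1 window per chain of overlapping windows, higher calls over all regions of the 8 genes fell from 17 to 7 in this comparison. None of the 22 was called lower in any of the 5 comparisons. Of all tested regions within 3000 bp, 14.6% were called higher and 5.81% lower between the IFN treated genotypes, and 7.28% and 4.45% between the untreated genotypes. The lower shares there were 0.0243% for IFN in WT cells, 2.22% for IFN in USP18-/- cells and 1.47% for the difference of the IFN effects. These shares are small for 22 regions, so the absence of lower calls was not read as a result. Among the 50 tested regions farther away, 4 were called higher and 5 lower between the IFN treated genotypes. Of all tested regions at that distance, 10.3% were higher and 15.7% lower, so these counts were not above the table's own. The median log2 fold change of the 22 was 1.13, beside 0.34 over all 28847 tested regions within 3000 bp. Without IFN these medians were 0.64 and 0.30. Regions near a TSS therefore stood above the rest of the table between genotypes as a whole. When regions within 3000 bp and farther regions were scaled separately, 12 regions of the 8 genes were called higher and 5 lower between the IFN treated genotypes. Scaling by the sum of counts moved the median of all tested regions to -0.27 in this comparison.

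SOCS1, the feedback inhibitor of the IFN-activated JAK kinases, had the largest rise with IFN among the 8 promoters. The region at -357 bp (chr16:11256039-11257039) reaches over the ISRE core shown above and gave 24.5 and 21.5 CPM in untreated WT and 38.8 and 33.5 CPM in IFN treated WT cells. It gave 33.8 and 41.1 CPM in untreated USP18-/- and 112 and 120.0 CPM in IFN treated USP18-/- cells. Both libraries of the last group stood at least 70 CPM above every other library.
On the log2 scale, the rise with IFN was 0.66 for WT cells (SE 0.12, adjusted p = 7.0e-05) and 1.63 for USP18-/- cells (SE 0.10, adjusted p = 1.2e-25). The effect was larger in USP18-/- cells by 0.98 (SE 0.15, adjusted p = 5.4e-07), which missed the fold threshold. Without IFN, the region was already 0.70 higher in USP18-/- than in WT cells (SE 0.11, adjusted p = 2.7e-07), and with IFN 1.68 higher (SE 0.10, adjusted p = 3.6e-26). Without replicate 2 of untreated WT cells, the IFN effect in WT cells was 0.56 with an adjusted p of 0.072.

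The region nearest to the SOCS1 TSS, at -23 bp (chr16:11255705-11256705), overlaps the former and gave 24.3 and 21.8 CPM in untreated WT, 36.5 and 32.8 in IFN treated WT, 32.4 and 34.8 in untreated USP18-/- and 92.6 and 88.6 CPM in IFN treated USP18-/- cells. Here IFN raised H3K27ac by 0.59 in WT (SE 0.11, adjusted p = 0.00051) and by 1.43 in USP18-/- cells (SE 0.10, adjusted p = 5.0e-22). The adjusted p in WT cells was 0.14 without replicate 2 of untreated WT cells and 0.075 without replicate 1 of IFN treated WT cells. Untreated WT and IFN treated USP18-/- cells thus bracketed the other groups, which overlapped each other. The genotype difference without IFN was 0.55 (adjusted p = 4.9e-05), and was 0.24 (adjusted p = 0.088) when regions near and far from a TSS were scaled separately.

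Upstream at -1256 bp (chr16:11256938-11257938), the SOCS1 flank was lower in level and larger in fold. Untreated WT cells gave 2.69 and 1.63 CPM, IFN treated WT cells 4.66 and 5.33, untreated USP18-/- cells 3.23 and 6.06, and IFN treated USP18-/- cells 16.2 and 25.1 CPM. This was the only region of the 8 genes called with IFN in WT cells, with a log2 fold change of 1.22 (SE 0.30, adjusted p = 0.018), and DESeq2 gave an adjusted p of 0.40. Without 1 library, its adjusted p was 0.52 (replicate 2 of untreated WT), 0.11 (replicate 1 of IFN treated WT) and 0.28 (replicate 2 of IFN treated WT). The rise in USP18-/- cells was 2.16 (SE 0.20, adjusted p = 1.3e-15). Downstream at 337 bp, the USP18-/- libraries of a group disagreed, and the cause was not tested. The USP18-/- libraries read 11.3 and 23.1 CPM when untreated, and 21.2 and 51.9 CPM after IFN, so these groups overlapped although the region was called (log2 fold change 1.09, SE 0.18, adjusted p = 5.3e-07). The gene RMI2 also spans these promoter regions.

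Of the 13 regions listed for SOCS1, the 9 downstream of its promoter lie nearest to the start of another protein-coding gene, RMI2, so they cannot be assigned to SOCS1 by position. Those called among them were lower in USP18-/- cells. The regions at 30612 and 30988 bp overlap, and the ISRE core shown for the first lies under both. At 30988 bp (chr16:11224694-11225694), untreated WT cells gave 7.02 and 5.90 CPM, IFN treated WT cells 6.94 and 7.38, untreated USP18-/- cells 1.83 and 2.60, and IFN treated USP18-/- cells 1.24 and 2.25 CPM. All 4 USP18-/- libraries were below all 4 WT libraries. The region was lower in USP18-/- cells by -1.54 on the log2 scale without IFN (SE 0.27, adjusted p = 1.6e-06) and by -2.04 with IFN (SE 0.28, adjusted p = 1.3e-09). At 30612 bp the same differences were -1.13 and -1.93, and the first missed the threshold without replicate 1 of untreated USP18-/- cells (-0.80, adjusted p = 0.059) and was -0.97 with separate scaling near and far from a TSS, under the fold threshold (adjusted p = 0.0037).

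Farther out, the SOCS1 regions at 31849 and 47098 bp lie over a long noncoding gene (ENSG00000263033) and were lower in IFN treated USP18-/- than in IFN treated WT cells. At 47098 bp (chr16:11208584-11209584), untreated WT cells gave 9.30 and 9.98 CPM, IFN treated WT cells 13.7 and 11.4, untreated USP18-/- cells 7.33 and 10.3, and IFN treated USP18-/- cells 4.26 and 4.22 CPM. The last pair of libraries was the lowest of the 8. With IFN the region fell by 1.05 in USP18-/- cells (SE 0.21, adjusted p = 4.5e-05). WT cells gave 0.38 (SE 0.18, adjusted p = 0.52). The IFN effects differed by -1.42 (SE 0.28, adjusted p = 6.2e-05). At 31849 bp, untreated USP18-/- cells (5.59 and 5.77 CPM) were already below every WT library, and IFN gave -0.57 there (adjusted p = 0.071). The difference of the IFN effects was -1.01 (SE 0.31, adjusted p = 0.016), and its adjusted p was between 0.056 and 0.11 without replicate 2 of untreated WT, of IFN treated WT or of IFN treated USP18-/- cells.

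SOCS2, which acts on growth hormone and related cytokine receptors, differed between genotypes and not with IFN. Its 4 promoter regions lie over 4 annotated starts and overlap one another and the antisense gene SOCS2-AS1. At -27 bp (chr12:93569872-93570872), untreated WT cells gave 3.31 and 4.36 CPM, IFN treated WT cells 4.16 and 3.28, untreated USP18-/- cells 17.7 and 16.6, and IFN treated USP18-/- cells 17.3 and 13.7 CPM. The lowest USP18-/- library was above 3 times the highest WT library. The region was higher in USP18-/- cells by 2.15 on the log2 scale without IFN (SE 0.20, adjusted p = 6.3e-16) and by 2.06 with IFN (SE 0.20, adjusted p = 5.7e-15).
At -14 bp, over the GAS pair shown above, the differences were 1.90 (SE 0.20) and 1.93 (SE 0.21), at -49 bp 2.35 and 2.35, and at -79 bp 1.76 and 1.96. All 4 regions were called in both comparisons. IFN itself gave log2 fold changes between -0.39 and 0.06 in WT and between -0.34 and 0.07 in USP18-/- cells over these regions, with adjusted p-values of at least 0.13. Scaled by the sum of counts, IFN lowered the region at -14 bp in USP18-/- cells (-0.47, adjusted p = 0.022). The difference of the IFN effects at -14 bp was 0.03 (SE 0.30).

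SOCS3, the inhibitor of receptors that signal through gp130, changed less at its promoter. The region at -125 bp (chr17:78359704-78360704) gave 13.6 and 14.4 CPM in untreated WT, 14.0 and 15.6 in IFN treated WT, 18.3 and 17.2 in untreated USP18-/- and 25.7 and 24.1 CPM in IFN treated USP18-/- cells. The USP18-/- libraries lay above all WT libraries, and the IFN treated ones highest. IFN raised it by 0.48 in USP18-/- cells (SE 0.13, adjusted p = 0.0032), and the log2 fold change in WT cells was 0.07 (SE 0.15, adjusted p = 0.94). Without replicate 1 of IFN treated USP18-/- cells the former had an adjusted p of 0.054. With IFN, the region was 0.75 higher in USP18-/- than in WT cells (SE 0.14, adjusted p = 3.4e-06). The IFN effects themselves were not shown to differ (0.41, SE 0.20, adjusted p = 0.21).

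The highest H3K27ac around SOCS3 was not at its promoter but at 30499 bp (chr17:78329080-78330080), in a long noncoding gene (ENSG00000267737). It gave 33.7 and 30.9 CPM in untreated WT, 36.3 and 41.4 in IFN treated WT, 29.3 and 37.6 in untreated USP18-/- and 24.2 and 25.3 CPM in IFN treated USP18-/- cells. The IFN treated USP18-/- libraries were the lowest of the 8. IFN lowered the region by 0.43 in USP18-/- cells (adjusted p = 0.0034), beside a log2 fold change of 0.27 in WT cells (adjusted p = 0.44), and the effects differed by -0.70 (SE 0.17, adjusted p = 0.0013). Without replicate 2 of untreated USP18-/- cells the fold change was -0.24 (adjusted p = 0.26) and the difference -0.51 (adjusted p = 0.054). In the 3 overlapping regions from 16789 to 17323 bp and in the region at 35409 bp, this difference was between -0.51 and -0.57, with adjusted p-values of 0.01 to 0.035. None of the 12 SOCS3 regions was called in any comparison.

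CISH, an inhibitor of STAT5-activating receptors, shares its promoter region at -4 bp (chr3:50611335-50612335) with MAPKAPK3, so the mark cannot be assigned to either gene. The region holds the 4 GAS matches and gave 13.7 and 11.3 CPM in untreated WT, 13.6 and 13.8 in IFN treated WT, 13.4 and 16.9 in untreated USP18-/- and 19.1 and 19.2 CPM in IFN treated USP18-/- cells. It passed the test in 1 comparison, between the IFN treated genotypes, at 0.48 (SE 0.15, adjusted p = 0.006). That difference was 0.20 (adjusted p = 0.29) when scaled by the sum of counts and 0.13 (adjusted p = 0.51) when regions near and far from a TSS were scaled separately. IFN in USP18-/- cells gave 0.34 (SE 0.15, adjusted p = 0.083), and 0.51 (adjusted p = 0.03) without replicate 2 of untreated USP18-/- cells.
The other 5 regions listed for CISH lie nearest to the start of MAPKAPK3. The level was highest at 10619 bp (chr3:50600712-50601712), with 46.5 and 50.6 CPM in untreated WT, 52.4 and 46.7 in IFN treated WT, 57.2 and 53.3 in untreated USP18-/- and 38.1 and 37.0 CPM in IFN treated USP18-/- cells. IFN lowered it by 0.56 in USP18-/- cells (SE 0.10, adjusted p = 5.4e-06), and the IFN effects differed by -0.59 (SE 0.14, adjusted p = 0.0018). The region at 19141 bp, over HEMK1, rose by 0.64 with IFN in USP18-/- cells (SE 0.15, adjusted p = 0.00039).

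PIAS1, the SUMO ligase that restrains STAT proteins, was higher in USP18-/- cells at its promoter and was not called in any comparison. The region at 86 bp (chr15:68053765-68054765) gave 26.2 and 21.3 CPM in untreated WT, 27.4 and 24.6 in IFN treated WT, 32.9 and 37.6 in untreated USP18-/- and 41.7 and 39.8 CPM in IFN treated USP18-/- cells. All USP18-/- libraries lay above all WT libraries. The genotype difference was 0.57 without IFN (SE 0.12, adjusted p = 5.5e-05) and 0.65 with IFN (SE 0.12, adjusted p = 2.0e-06). Scaled separately near and far from a TSS, these were 0.26 (adjusted p = 0.084) and 0.30 (adjusted p = 0.032). IFN gave 0.13 in WT (adjusted p = 0.83) and 0.21 in USP18-/- cells (SE 0.11, adjusted p = 0.18). The overlapping region at 164 bp, the highest of PIAS1, rose by 0.29 with IFN in USP18-/- cells (adjusted p = 0.036). Scaled by the sum of counts the rise was 0.16 (adjusted p = 0.31), and with separate scaling 0.25 (adjusted p = 0.068). The result also missed the threshold under DESeq2 (adjusted p = 0.13), without the count filter (adjusted p = 0.053), and without replicate 1 of untreated (adjusted p = 0.32), replicate 1 of IFN treated (adjusted p = 0.19) or replicate 2 of IFN treated USP18-/- cells (adjusted p = 0.064).

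**Figure D3:**
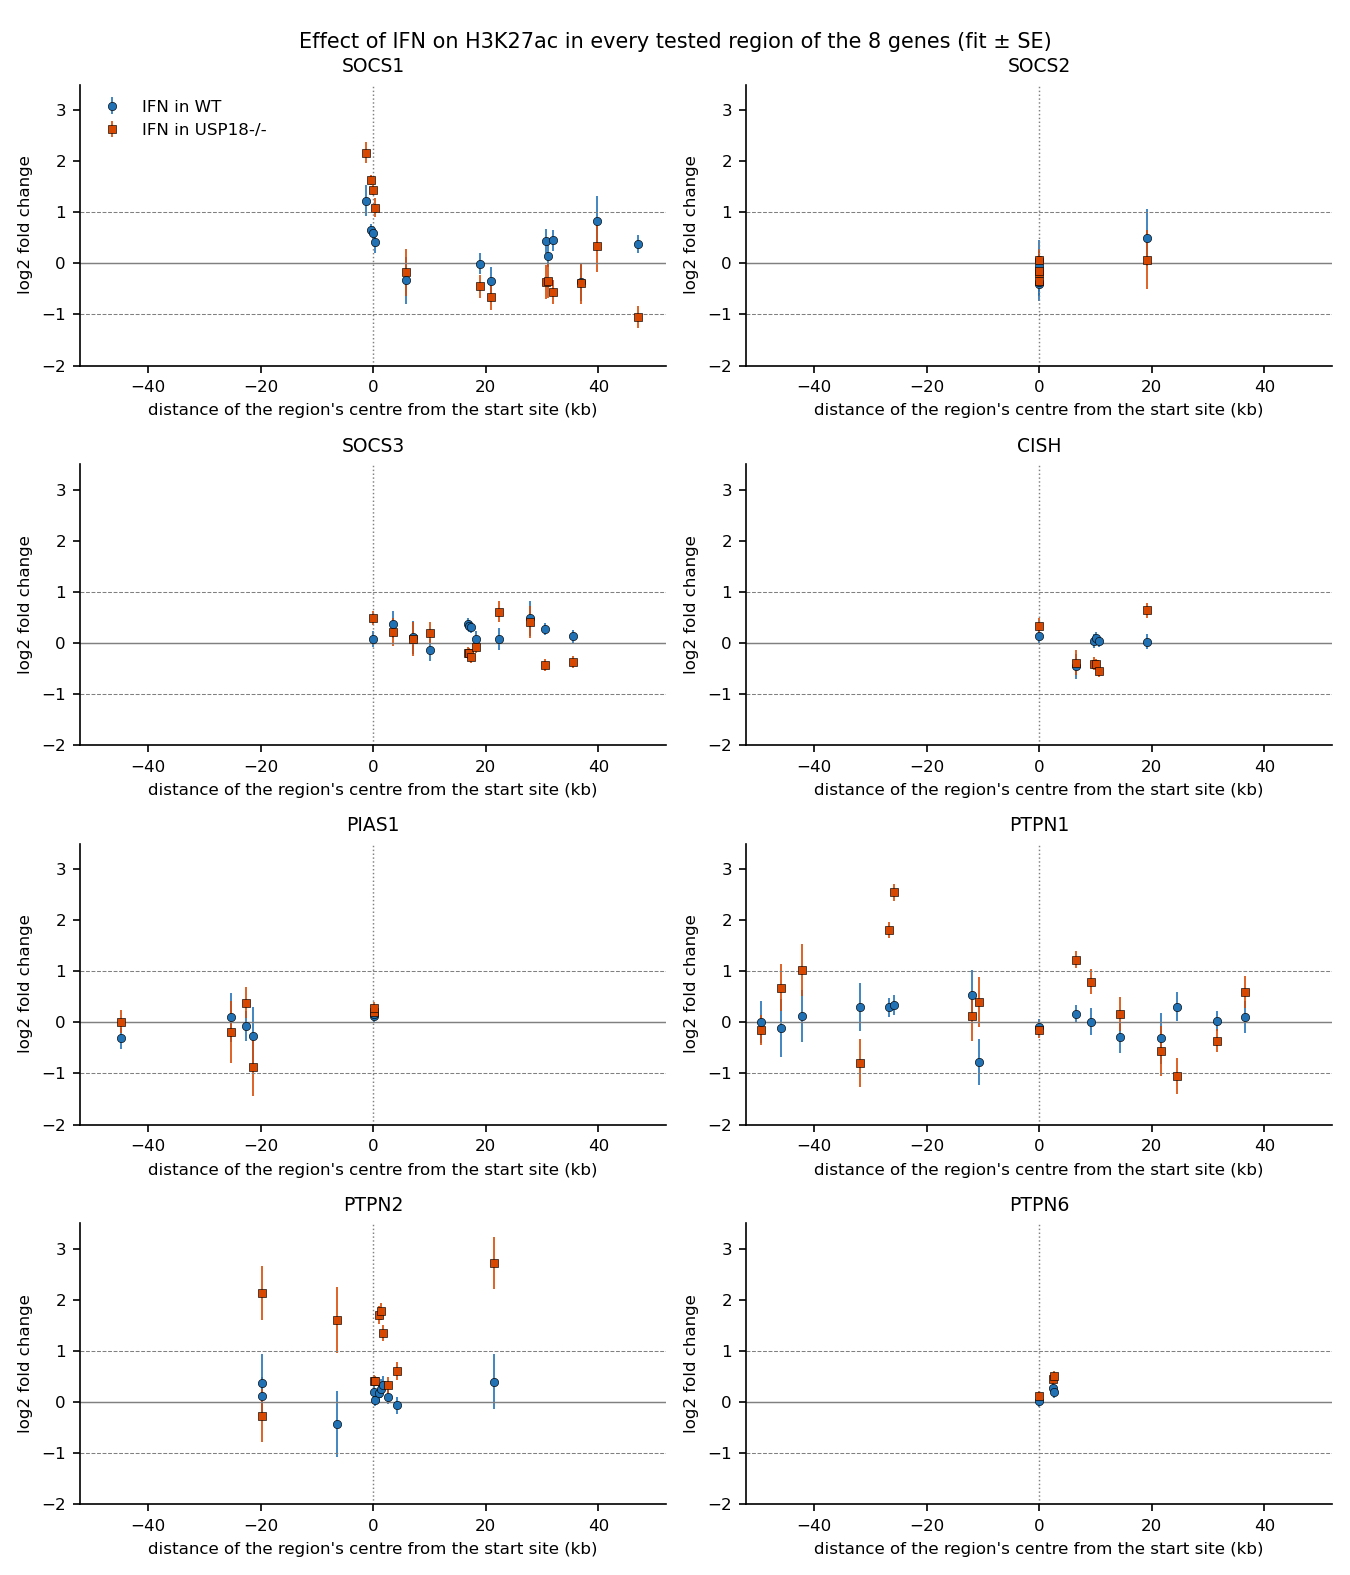
Log2 fold change of H3K27ac with IFN (fit ± SE, vertical axes) in every tested region of the 8 genes, against the distance of its centre from the nearest annotated TSS of that gene (kb, horizontal axes). Circles are WT and squares USP18-/- cells, and dashed lines mark 2-fold changes. SOCS1 rises at its promoter in both genotypes, while PTPN1 and PTPN2 have regions above 1 in USP18-/- cells only among the values plotted, the highest at 2.71 for PTPN2 and 2.54 for PTPN1. The PTPN2 value at 2.71 is the region at 21506 bp, which passed the count filter only through the IFN treated USP18-/- libraries.

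PTPN1, the phosphatase of JAK2 and TYK2, was flat at its promoter and changed upstream of it. The region at -98 bp (chr20:50509723-50510723) gave between 11.5 and 15.6 CPM in all 8 libraries, with log2 fold changes between -0.15 and -0.05 in the 5 comparisons. Between the IFN treated genotypes it was -0.14 (adjusted p = 0.54), and -0.49 (adjusted p = 0.013) when regions near and far from a TSS were scaled separately.
The highest PTPN1 region was at -25859 bp (chr20:50483962-50484962), in intergenic sequence. It gave 7.85 and 6.44 CPM in untreated WT, 8.13 and 9.95 in IFN treated WT, 5.50 and 6.26 in untreated USP18-/- and 37.0 and 31.5 CPM in IFN treated USP18-/- cells. The IFN treated USP18-/- libraries were more than 3 times every other library. IFN raised it by 2.54 in USP18-/- cells (SE 0.16, adjusted p = 9.0e-25), the most significant IFN effect of PTPN1, while WT cells gave 0.34 (SE 0.19, adjusted p = 0.62). The IFN effects differed by 2.20 (SE 0.25, adjusted p = 6.1e-11). Without IFN the genotypes gave -0.28 (SE 0.20, adjusted p = 0.31). The neighboring region at -26650 bp, with the ISRE core shown above, rose by 1.81 in USP18-/- cells (SE 0.15, adjusted p = 9.4e-18) and differed in its IFN effect by 1.52 (SE 0.25, adjusted p = 1.5e-06).

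Within PTPN1 introns, IFN moved regions in both directions in USP18-/- cells. At 6478 bp, untreated USP18-/- cells gave 7.68 and 7.22 CPM, below the WT libraries at 9.71 to 14.8 CPM, and 19.3 and 15.7 CPM after IFN. The rise was 1.23 (SE 0.17, adjusted p = 6.5e-09), and the IFN effects differed by 1.06 (SE 0.24, adjusted p = 0.00069). At 24485 bp (chr20:50534306-50535306) the level was low. It was 2.48 and 3.81 CPM in untreated WT, 4.26 and 3.59 in IFN treated WT, 2.53 and 3.18 in untreated USP18-/- and 1.51 and 1.22 CPM in IFN treated USP18-/- cells. IFN lowered this region by 1.05 in USP18-/- cells (SE 0.34, adjusted p = 0.016), with a difference of -1.35 between the IFN effects (SE 0.45, adjusted p = 0.031). Both rest on few counts. DESeq2 gave adjusted p-values of 0.084 and 0.14, and the difference lost its call without replicate 1 of either WT group or replicate 2 of either USP18-/- group (adjusted p = 0.12 to 0.17). The fall lost its call without replicate 2 of untreated (adjusted p = 0.14) or IFN treated USP18-/- cells (adjusted p = 0.12). At -49413 bp, PTPN1 was higher in USP18-/- cells by 1.28 without IFN (SE 0.34, adjusted p = 0.0016) and by 1.13 with IFN (SE 0.35, adjusted p = 0.0058).

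**Figure D4:**
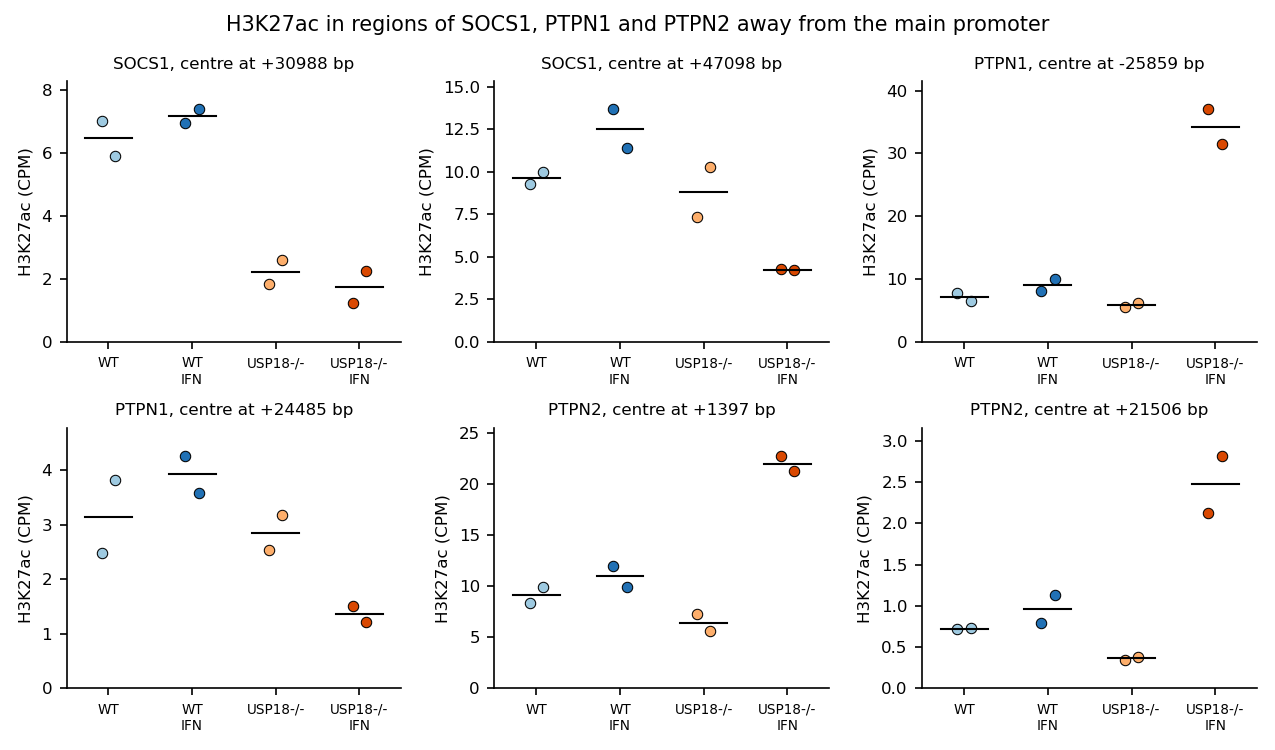
H3K27ac (CPM, vertical axes from 0) in 6 regions of SOCS1, PTPN1 and PTPN2 away from the main promoter of each gene, by genotype and treatment. Points are the 2 libraries of a group and bars their mean. PTPN1 at -25859 bp reaches 31.5 and 37.0 CPM and PTPN2 at 1397 bp 21.2 and 22.7 CPM in IFN treated USP18-/- cells, while SOCS1 at 47098 bp is lowest there, at 4.22 and 4.26 CPM, and SOCS1 at 30988 bp is low in both USP18-/- groups.

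PTPN2, a phosphatase of JAK1 and of STAT proteins in the nucleus, differed between genotypes at its main promoter. The region at 66 bp (chr18:12883769-12884769) gave 19.8 and 20.5 CPM in untreated WT, 23.5 and 22.6 in IFN treated WT, 40.1 and 44.9 in untreated USP18-/- and 54.9 and 58.6 CPM in IFN treated USP18-/- cells. All USP18-/- libraries were well above all WT libraries. The difference was 1.07 without IFN (SE 0.12, adjusted p = 7.4e-13) and 1.30 with IFN (SE 0.11, adjusted p = 1.1e-17). The first was under the fold threshold at 0.93 when scaled by the sum of counts, and at 0.76 (adjusted p = 1.2e-06) when regions near and far from a TSS were scaled separately. The difference with IFN was likewise under it at 0.95 with separate scaling (adjusted p = 3.1e-09), and was 1.02 by the sum of counts. IFN raised the region by 0.42 in USP18-/- cells (SE 0.10, adjusted p = 0.00095), and by 0.31 without replicate 1 of untreated USP18-/- cells (adjusted p = 0.078). In WT cells it gave 0.19 (SE 0.12, adjusted p = 0.71), and the IFN effects were not shown to differ (0.23, SE 0.16, adjusted p = 0.46).

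Inside PTPN2, 44418 to 45082 bp from the main promoter region, 3 overlapping regions listed as intronic rose with IFN in USP18-/- cells. They are listed at 1111, 1397 and 1775 bp because the table measures them from an internal annotated start. At 1397 bp (chr18:12839065-12840065), untreated WT cells gave 8.37 and 9.89 CPM, IFN treated WT cells 12.0 and 9.95, untreated USP18-/- cells 7.24 and 5.58, and IFN treated USP18-/- cells 22.7 and 21.2 CPM. The rise in USP18-/- cells was 1.77 (SE 0.17, adjusted p = 2.6e-15), beside 0.26 in WT cells (SE 0.18, adjusted p = 0.73), and the effects differed by 1.51 (SE 0.25, adjusted p = 1.7e-06). Without IFN the region was 0.51 lower in USP18-/- cells (log2 fold change -0.51, adjusted p = 0.031), the opposite direction to the main promoter. The regions at 1111 and 1775 bp rose by 1.70 and 1.35 in USP18-/- cells, and their effects differed by 1.53 and 1.01.

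Of the weaker PTPN2 regions, those at 21506 and -19756 bp had the steepest folds and the fewest counts. At 21506 bp (chr18:12818956-12819956), with an ISRE core at its centre, untreated WT cells gave 0.723 and 0.726 CPM, IFN treated WT cells 0.793 and 1.13, untreated USP18-/- cells 0.349 and 0.385, and IFN treated USP18-/- cells 2.13 and 2.82 CPM. IFN raised it by 2.71 in USP18-/- cells (SE 0.51, adjusted p = 9.6e-06), and the effects differed by 2.32 (SE 0.78, adjusted p = 0.035). Outside the IFN treated USP18-/- libraries, at 24 and 30 counts, only replicate 2 of IFN treated WT cells reached 10 counts (11). The region thus passed the count filter only through the group in which it is high, and these p-values were not read as support. DESeq2 gave no adjusted p for either effect. The difference lost its call without any of 6 of the 8 libraries (adjusted p = 0.072 to 0.12), and the excluded ones that kept it were replicate 2 of IFN treated WT and replicate 1 of IFN treated USP18-/- cells.
At -19756 bp (chr18:12903591-12904591), with the other GAS pair, untreated USP18-/- cells were lowest at 0.436 and 0.289 CPM. Untreated WT cells gave 2.38 and 1.63, IFN treated WT cells 2.08 and 2.26, and IFN treated USP18-/- cells 1.42 and 1.88 CPM. The difference between untreated genotypes was -2.40 (SE 0.51, adjusted p = 7.0e-05), the IFN rise in USP18-/- cells 2.13 (SE 0.52, adjusted p = 0.00082) and the difference of the IFN effects 2.01 (SE 0.65, adjusted p = 0.027). The last of these lost its call without replicate 1 of untreated WT, replicate 1 of IFN treated WT, either library of untreated USP18-/- or replicate 2 of IFN treated USP18-/- cells (adjusted p = 0.057 to 0.15).

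PTPN6, the phosphatase of blood cell receptors, was higher in USP18-/- cells over all 3 of its regions. At 35 bp (chr12:6950806-6951806), untreated WT cells gave 26.1 and 24.4 CPM, IFN treated WT cells 25.9 and 25.3, untreated USP18-/- cells 47.0 and 43.9, and IFN treated USP18-/- cells 51.0 and 47.3 CPM. The genotypes did not overlap. The difference was 0.85 without IFN (SE 0.11, adjusted p = 7.6e-10) and 0.94 with IFN (SE 0.11, adjusted p = 8.4e-12). IFN gave 0.02 in WT (adjusted p = 0.99) and 0.11 in USP18-/- cells (SE 0.10, adjusted p = 0.51).
The overlapping regions at 2360 and 2679 bp, listed as intronic, the first of them the highest of PTPN6, were called between the IFN treated genotypes at 1.10 (SE 0.10, adjusted p = 1.8e-16) and 1.17 (SE 0.10, adjusted p = 5.6e-17). At 2360 bp this was 0.82 by the sum of counts and 0.75 with separate scaling near and far from a TSS, both under the fold threshold with adjusted p-values of 1.1e-11 and 6.1e-08. They rose by 0.45 (adjusted p = 8.3e-05) and 0.51 (adjusted p = 1.4e-05) with IFN in USP18-/- cells, beside 0.27 (adjusted p = 0.35) and 0.19 (adjusted p = 0.66) in WT cells. The difference of the IFN effects did not pass for either (adjusted p = 0.54 and 0.17).

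The rest of the pathway was read in the same way, by the list alone. The 14 receptor chains, kinases and transcription factors had 110 tested regions. At its TSS, IRF9 went from 14.4 and 12.6 CPM in untreated WT to 43.0 and 42.6 CPM in IFN treated WT, and from 25.4 and 20.9 to 106 and 91.3 CPM in USP18-/- cells. Unlike SOCS1, its IFN effects were not shown to differ between the genotypes (0.42, adjusted p = 0.098).
The difference of the IFN effects called 6 of the 110 regions higher, in JAK1, JAK2, STAT2 and STAT3, and 1 lower, in JAK2, which is 5.45% and 0.909% beside 4.66% and 2.51% of all tested regions. Without IFN, 2 were higher in USP18-/- cells, in JAK1 and JAK2, and 6 lower, in JAK1, JAK3, STAT4 and STAT6, which is 1.82% and 5.45% beside 5.66% and 10.8% of all tested regions. The 12 further inhibitors had 64 tested regions. IFN raised 1 in WT cells, in USP18, which is 1.56% beside 0.344% of all tested regions. It raised 3 in USP18-/- cells, in CBL, PTPRC and USP18, and lowered 1 there, in SOCS6. The USP18-/- counts are 4.69% and 1.56%, below the 7.14% and 4.28% of all tested regions. Between the untreated genotypes 8 were higher, in PTPRC, SH2B3 and SOCS7, and 1 lower (12.5% and 1.56%, beside 5.66% and 10.8% of all), and between the IFN treated ones 11 were higher and 5 lower (17.2% and 7.81%, beside 11.3% and 13.4%). The difference of the IFN effects called 4 higher and 1 lower (6.25% and 1.56%, beside 4.66% and 2.51%). SH2B3, an adaptor that inhibits JAK2, had 19.9 and 16.9 CPM at its TSS in untreated WT and 39.2 and 47.0 CPM in untreated USP18-/- cells, a difference of 1.23 (adjusted p = 1.7e-14).

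The promoters most like each gene were named from 9860 other genes by the root mean square (RMS) difference in log2 change from untreated WT over the other 3 groups. Nearest to SOCS1 were TAP2 (RMS 0.049), a peptide transporter of antigen presentation, TENT5A (0.0822) and FBXW9 (0.128). SOCS2 was nearest to LINC01006 (0.071), PACSIN2 (0.119) and CNNM2 (0.163). PTPN2 was nearest to RALB (0.0292), DOK2 (0.0427) and CCDC91 (0.044), and PTPN6 to IDNK (0.00807). For SOCS3, CISH, PIAS1 and PTPN1, whose changes were small, TTC37 (0.0221), WDR43 (0.0152), MRPL42 (0.0111) and KCNJ2-AS1 (0.0113) were nearest. With 3 values per gene, these are descriptions of similar changes from untreated WT, not of similar levels.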

How the data were processed

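H3K27ac ChIP-seq covered 4 groups of THP-1 cells (2 genotypes, with and without IFN), with 2 libraries each. The authors mapped reads to hg38 with Bowtie2 and counted raw tags with HOMER over windows of 1000 bp centred on merged ATAC-seq peaks. The deposited values are expected counts in steps of 0.5 tags, not normalized, and were rounded to whole counts. Versions are not given in the sources used here. The ATAC-seq data and the input libraries were not used here.

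Regions that reached 10 counts in 2 or more of the 8 libraries were scaled by TMM and fitted with 1 mean per group over all 8 libraries (edgeR 4.0.16, limma 3.58.1, R 4.3.3). Each comparison was tested by quasi-likelihood in edgeR, and p-values were adjusted over 123276 regions (Benjamini-Hochberg). Calls required both an adjusted p under 0.05 and a log2 change beyond 1 either way, the thresholds of the study's methods. The common biological coefficient of variation was 0.0737, and the smallest library held 9082433 rounded counts. With 2 libraries a group, the error of a region borrows from the other regions. Counting error weighs most at low levels, and one tested region of these genes held 3 counts in a library. Motifs were searched in hg38, and genes under windows were read from GENCODE release 44. Python 3.11.15 and pandas 2.3.3 were used for tables. With 3-fold changes simulated in 200 of 116234 regions for IFN in USP18-/- cells, 167 were called (121 of the 121 whose mean reached 30 counts), with 0 in the wrong direction and 6 false calls.

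The genes and lists were chosen with earlier results of these data known. Named regions were, for each gene, the tested region nearest to the TSS and that of highest mean CPM, and for each comparison the 3 largest rises and 3 largest falls among called regions whose groups did not overlap. Further regions were named after their values were seen. The likeness measure added 0.1 CPM before taking log2 and used regions within 1000 bp of a TSS with a mean of at least 5 CPM. Alternatives were RLE size factors, the sum of counts, separate scaling within and beyond 3000 bp of a TSS, DESeq2 1.42.0, no filter, the 4 compared libraries alone, adjusted p alone, 1 window per chain of overlapping windows, the replicate number as a block, and each library left out in turn. Lists were described by counts and medians only. Some results for one further pathway gene and one sequence are not reported here.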

Additional observations from a re-analysis of the deposited data

Results flagged for a closer look

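The effect of IFN on H3K27ac differed between USP18-/- and WT cells by more than 2-fold in 11 regions, of which the 6 chosen by the naming rule are given here, by edgeR's quasi-likelihood test of the difference itself with Benjamini-Hochberg adjustment. The log2 differences were 2.20 for PTPN1 at -25859 bp (adjusted p = 6.1e-11), 2.32 for PTPN2 at 21506 bp (adjusted p = 0.035) and 2.01 for PTPN2 at -19756 bp (adjusted p = 0.027). They were -1.42 for SOCS1 at 47098 bp (adjusted p = 6.2e-05), -1.01 for SOCS1 at 31849 bp (adjusted p = 0.016) and -1.35 for PTPN1 at 24485 bp (adjusted p = 0.031). The directions were opposite in the 2 PTPN1 regions. The differences of both PTPN2 regions, of PTPN1 at 24485 bp and of SOCS1 at 31849 bp lost their call without some single libraries. DESeq2 gave adjusted p-values of 0.14 for PTPN1 at 24485 bp and 0.078 for SOCS1 at 31849 bp, and none for the PTPN2 regions. PTPN2 at 21506 bp passed the count filter only through the IFN treated USP18-/- libraries, so its p-value was not read as support.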

How the results depend on the processing

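The counts below are regions of the 8 genes called in a comparison. For IFN in WT cells, the 1 region called higher became 0 under DESeq2, under separate scaling near and far from a TSS and with 1 window per chain, and 3 on the adjusted p alone. With the adjusted p alone, which asks for no fold, the other counts became 22 higher and 7 lower for IFN in USP18-/- cells. They became 19 and 11 between untreated genotypes, 24 and 13 between IFN treated genotypes, and 12 and 10 for the difference of the IFN effects. The 74 regions formed 54 chains of overlapping windows. With 1 window per chain, which leaves fewer regions, the counts became 5 higher for IFN in USP18-/- cells, and 2 higher and 1 lower between untreated genotypes. They became 7 higher and 3 lower between IFN treated genotypes, and 4 higher for the difference. Under DESeq2 they became 10 higher and 1 lower for IFN in USP18-/- cells, and 6 and 3 between untreated genotypes. Between IFN treated genotypes they became 14 and 5, and for the difference 5 and 1. Scaled by the sum of counts, they became 11 and 2, 5 and 4, 11 and 8, and 6 and 3, in the same order. Separate scaling near and far from a TSS gave 12 and 2, 5 and 2, 12 and 5, and 7 and 2. RLE size factors gave 7 higher for the difference. The cause of the changes under DESeq2 and the scalings was not tested. The shares of all tested regions called with 1 window per chain, under DESeq2 or under the scalings are not given here. These counts were therefore not compared with the table's own. Leaving out 1 library at a time gave 0 to 1 higher for IFN in WT cells, and 12 to 13 higher and 0 to 2 lower for IFN in USP18-/- cells. Between untreated genotypes it gave 5 to 7 higher and 2 to 4 lower, and between IFN treated genotypes 14 to 17 and 5 to 6. For the difference it gave 5 to 9 higher and 1 to 3 lower. Of 1933 values of single regions under the alternatives, none of the called ones turned direction.

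With the replicate block, the counts were 1 and 0, 12 and 2, 7 and 3, 17 and 5, and 8 and 3 (higher and lower, in the order of the comparisons above), as without it. Over all tested regions, the deviations of libraries with the same number correlated at -0.003 to 0.042, highest between untreated and IFN treated USP18-/- cells. Little pairing by number was thus seen, but a correlation over all regions cannot exclude it at single regions.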
